A study of Mus musculus with 16 samples.

Results

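Transcripts of 6 testis histone genes were followed through 4 sorted germ cell populations of wild-type and Tex10-deficient mice: Hist1h1t, Hist1h2aa, Hist1h2ba, H1fnt, H2afb1 and H2afy3. They were taken by symbol from the 13101 genes of the deposited table, all 6 were found, and all 6 passed the filter on low values (at least 1 FPKM in at least 2 libraries), as did 13099 genes. The choice was made with earlier results of these data in view and names no contrast, so levels across cell types are given as a description, and only differences between genotypes were tested.

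The 8 groups held 2 libraries each. Cells came from the testes of male C57BL/6J mice aged 8 weeks, and were spermatogonia, MI spermatocytes, MII spermatocytes or spermatids by the sample titles. For the last the titles give RS, which can stand for round spermatids, and they are called spermatids here. Wild-type mice are set against Tex10f/-; Stra8iCre mice, whose 2 Tex10 alleles are floxed and null and which express a Cre recombinase from Stra8, a gene that switches on in spermatogonia. No group held the null allele or the Cre alone, so neither can be told apart from the loss of Tex10. The labels give neither the sorting method nor whether libraries stem from separate animals, so p-values measure only how far these samples spread, possibly for technical reasons. Values are FPKM, fragment counts scaled to transcript length and to the mapped fragments of the library, from libraries enriched for polyadenylated RNA.

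During spermatogenesis the histones that package DNA are exchanged in steps. Spermatogonia and early spermatocytes take up the testis forms of H2A and H2B, spermatocytes in mid to late prophase take up the linker histone H1t, and haploid spermatids add further linker and H2A variants before transition proteins and then protamines replace nearly all histones. Most histone messages are made in S phase and end in a stem-loop without a polyA tail, whereas testis histone messages can be polyadenylated, so a polyA-enriched library samples these classes unequally.

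Tex10 itself ran from 13.8 to 116 FPKM in wild-type libraries and from 7.29 to 34.8 in Tex10-deficient libraries, and the genotypes did not overlap within any of the 4 cell types. Title and cell type field disagree for 6 of 8 Tex10-deficient libraries. Titles were used here, and grouping by the field changes results below as stated in the closing part. The markers fixed for each cell type put 6 of 8 spermatogonial genes in the table, with summed levels of 158 to 309 FPKM in spermatogonia and 1.23 to 8.11 in spermatids. Late spermatocyte markers (8 of 8 in the table) summed to 2200 to 4023 FPKM in MI libraries but to 5589 to 6307 in spermatids. They thus do not single out MI spermatocytes. In spermatid libraries elongating spermatid markers summed to 11696 to 13304 FPKM in the wild type and to 6485 to 9111 in Tex10-deficient libraries. The libraries named MII also carried Leydig cell markers, from 785 to 1267 FPKM over 6 genes against 13.9 to 199 in spermatids, and macrophage markers (8 genes) from 210 to 537 against 5.66 to 26.0. Spermatogonia libraries carried macrophage markers too, from 286 to 498 FPKM in the wild type and 183 to 292 in Tex10-deficient libraries. The part of these other cells in the spermatogonia and MII values below was not tested.

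Of the 6 genes, 3 lie in the large histone cluster of chromosome 13 (GENCODE M21, GRCm38, the same assembly as mm10). Hist1h1t (XLOC_005178) is a single exon of 912 bases at chr13:23695814-23696725 on the plus strand. Hist1h2ba (XLOC_005629, minus strand, chr13:23933773-23934156) and Hist1h2aa (XLOC_005189, plus strand, chr13:23934462-23934851) are single exons that face away from each other and are known to share the stretch between them as a promoter. The sequence before Hist1h1t and the whole stretch between the annotated starts of the pair are shown, because Hist1h1t is the member that passed the genotype test below and the pair differed unequally. They come from RefSeq (GRCm38.p6), read on the plus strand, and 4 of the 6 genes could be matched to a single promoter sequence there. Capitals mark matches, on either strand, to 5 motifs: TATAA (the core of the TATA box), CCAAT, ATTTGCAT (the octamer), GGGCGG (the core of the GC box) and ACGTCA (part of the cyclic AMP response element). The first stretch is chr13:23695561-23695810, the 250 bases before the start of Hist1h1t, and the other is chr13:23934157-23934436.
Hist1h1t: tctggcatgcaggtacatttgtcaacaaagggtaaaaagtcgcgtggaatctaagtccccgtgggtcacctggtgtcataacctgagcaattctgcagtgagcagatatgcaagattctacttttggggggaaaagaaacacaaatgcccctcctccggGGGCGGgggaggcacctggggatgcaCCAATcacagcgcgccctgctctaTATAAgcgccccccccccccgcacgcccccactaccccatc
Hist1h2ba to Hist1h2aa: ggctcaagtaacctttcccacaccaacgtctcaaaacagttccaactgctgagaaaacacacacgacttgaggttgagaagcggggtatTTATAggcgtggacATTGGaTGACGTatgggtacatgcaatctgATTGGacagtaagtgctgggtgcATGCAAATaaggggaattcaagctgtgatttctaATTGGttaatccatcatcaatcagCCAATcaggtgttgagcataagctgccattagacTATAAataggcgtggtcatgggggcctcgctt

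Before Hist1h1t there was 1 match each to the GC box core, the CCAAT box and the TATA box core, beginning 91, 65 and 41 bases before the start, and none to the other motifs. Over 27025 promoters of the same 250 bases, the GC box core was present in 32.9%, the CCAAT box in 34.5% and the TATA box core in 23.5%. The 280 bases between the pair held 2 matches to the TATA box core, 1 toward each gene, with 4 to the CCAAT box, 1 to the octamer and 1 to ACGTCA, and none to the GC box core. The octamer was present in 1.61% of all promoters and ACGTCA in 6.56%. Among 41 promoters of replication-dependent histone genes, the octamer was present in 24.4% and the CCAAT box in 82.9%. No 2 matches overlapped in either stretch. The annotated start of Hist1h2ba is the same base in both annotations, which does not show that transcription begins there. Distances run from the annotated starts. The TATA box core toward Hist1h2ba begins 94 bases before its annotated start, against 32 for Hist1h2aa. H1fnt, on chromosome 15, had no match to the 5 motifs in its 250 bases. A match is a run of letters and not a measured site.

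The 6 transcripts fell into 3 pairs by the wild-type stage with the highest mean. Hist1h2aa and Hist1h2ba were highest in spermatogonia (for Hist1h2ba the spermatogonia and MI libraries overlapped), Hist1h1t and H2afy3 in MI spermatocytes, and H1fnt and H2afb1 in spermatids. Over all genes tested, the highest wild-type mean fell in spermatogonia for 24.8%, in MI spermatocytes for 12.6%, in MII spermatocytes for 25.5% and in spermatids for 37.1%. The same cell type was highest for 6 of 6 genes when either replicate number was used alone. In Tex10-deficient cells the highest cell type was again the same for each of the 6.

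**Figure D1:**
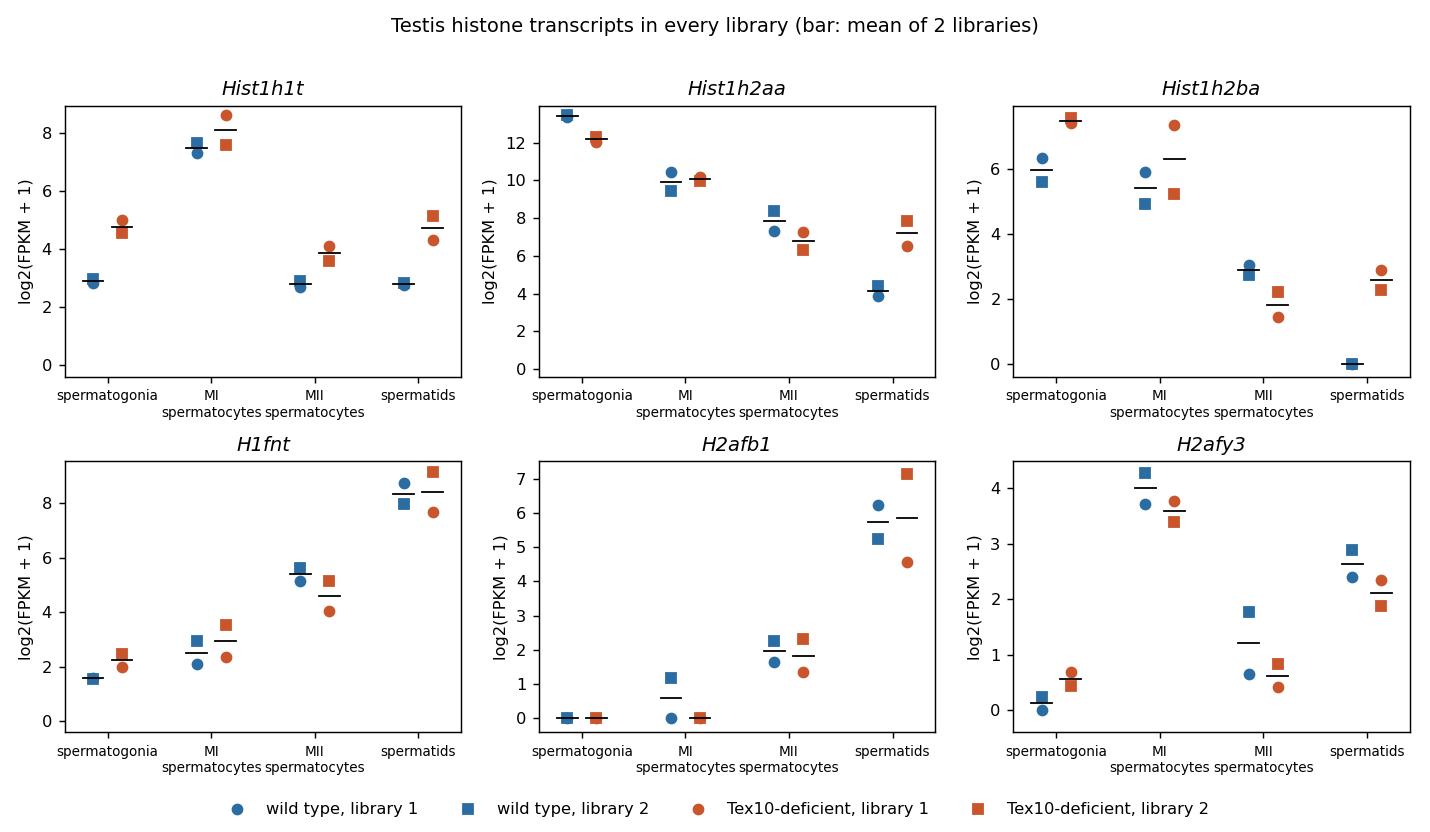
Level of each of the 6 transcripts as log2(FPKM + 1) in all 16 libraries, by cell type, with wild type in blue, Tex10-deficient in orange, circles for library 1, squares for library 2 and bars at the mean of 2. Vertical axes differ between panels. By mean, Hist1h2aa and Hist1h2ba stand highest in spermatogonia, Hist1h1t and H2afy3 in MI spermatocytes, and H1fnt and H2afb1 in spermatids, in both genotypes.

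Counted over the 6 genes, 0 passed limma's test at a Benjamini-Hochberg adjusted p under 0.05 within spermatogonia, MI spermatocytes, MII spermatocytes or spermatids. The share of all 13099 genes that passed was 0.0153%, 0.168%, 0.00763% and 0% in that order, so few genes of any kind passed. At an unadjusted p under 0.05 the counts were 3, 0, 2 and 3 of 6, against 6.6%, 5.84%, 13.3% and 2.17% of all genes. Averaged over the 4 cell types, 1 of 6 passed the adjusted test, Hist1h1t, against 0.0992% of all genes, and 0.0382% of all genes passed in its direction, higher in Tex10-deficient cells. At an unadjusted p under 0.05 the average gave 2 of 6, Hist1h1t and Hist1h2ba, against 11% of all genes. Without wild-type MII library 1 the number of all genes passing for the average went from 13 to 512, while Hist1h1t remained the only one of the 6.

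Both Tex10-deficient libraries lay above both wild-type libraries for 4 of the 6 genes in spermatogonia (16.9% of all genes), 0 in MI spermatocytes (15.7%), 1 in MII spermatocytes (17.3%) and 3 in spermatids (11.7%). They lay below for 1 of 6 in spermatogonia (19.6% of all genes), 0 in MI spermatocytes (18.4%), 3 in MII spermatocytes (18%) and 1 in spermatids (15.9%). MI spermatocytes were thus the cell type where the genotypes overlapped for all 6 genes. The 4 that lay above in spermatogonia include H2afy3, which was below 1 FPKM in every library there. An F test in the same limma model, of whether the difference itself varied between cell types, passed for 0 of 6 genes and for 0% of all genes after adjustment. Its unadjusted p was under 0.05 for 2 of 6, Hist1h2aa and Hist1h2ba, and for 6.49% of all genes.

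**Figure D2:**
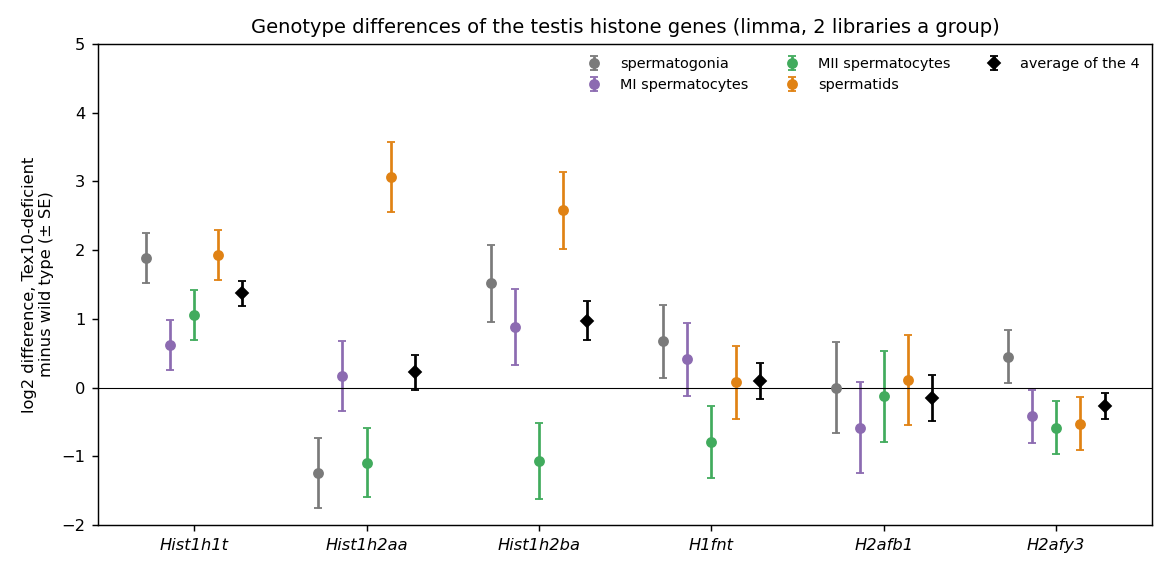
Difference in log2(FPKM + 1), Tex10-deficient minus wild type, from limma for each of the 6 genes, with bars of ± 1 SE, in spermatogonia (grey), MI spermatocytes (purple), MII spermatocytes (green), spermatids (orange) and on average (black diamonds). Hist1h1t lies above 0 in every cell type, whereas Hist1h2aa and Hist1h2ba lie on both sides of 0 and the 3 others lie nearer to it.

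Hist1h1t encodes H1t, the linker histone of mid and late prophase spermatocytes. In MI spermatocytes it stood at 159 and 203 FPKM in the wild-type libraries and at 399 and 191 in the Tex10-deficient libraries. The Tex10-deficient libraries lie on both sides of the wild-type ones, and library 1 is far above the others. This is the stage of its highest level in the wild type, 28.1 times that of spermatogonia, and wild-type spermatogonia, MII spermatocytes and spermatids did not differ from one another beyond their spread.

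Outside MI spermatocytes the genotypes separated. Spermatogonia held 6.08 and 6.79 FPKM of Hist1h1t in the wild type and 31.0 and 22.7 in the Tex10-deficient libraries, means of 6.44 ± 0.50 and 26.8 ± 5.9 (SD, n = 2 each) and a ratio of 4.16. MII libraries held 5.54 and 6.39 FPKM against 16.2 and 11.1, a ratio of 2.29. Spermatids held 5.75 and 6.11 FPKM against 18.9 and 34.1, a ratio of 4.46. In these 3 cell types every Tex10-deficient library lay above every wild-type library, a pattern of at least 3 of 4 cell types that 2% of all genes showed. The mean was higher in 4 of 4 cell types, as for 8.93% of all genes. By rank within a library, Hist1h1t went from place 6368 and 5994 in wild-type spermatogonia to place 1130 and 2048 in Tex10-deficient spermatogonia.

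On the log2(FPKM + 1) scale the difference was 1.89 ± 0.36 (SE) in spermatogonia, 0.62 in MI spermatocytes, 1.05 in MII spermatocytes and 1.93 in spermatids. None of these passed by itself (limma, Benjamini-Hochberg adjusted p = 0.1006, 1, 0.1972 and 0.2256). Averaged over the 4 cell types, Hist1h1t rose by 1.37 ± 0.18 (SE), with an adjusted p of 0.008005 in limma, the 5th smallest p of all genes, where the targeted gene Tex10 had the smallest. An F test gave no difference between cell types that passed (adjusted p = 0.793). The average without the MII libraries was 1.48, with an adjusted p of 0.0202. Grouped by the cell type field instead of the title, the average was no longer called (adjusted p = 1).

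In bulk samples, fewer cells of a type and less RNA per cell cannot be told apart, and the same holds for more. Late spermatocyte markers were therefore set beside Hist1h1t. In MI spermatocytes they summed to 2637 and 2502 FPKM in the wild type and to 4023 and 2200 in Tex10-deficient libraries. There 4 of 8 lay above 0 and 4 below in log2 difference. Tex10-deficient MI library 1 held the highest sum and the highest Hist1h1t level, and the part of late spermatocytes there was not tested. In spermatogonia the late spermatocyte markers summed to 82.9 and 86.3 FPKM in the wild type and to 97.5 and 143 in Tex10-deficient libraries. Of the 8 markers 4 lay above 0 and 4 below, and none was at 0 FPKM. Both Tex10-deficient sums thus lay above both wild-type sums, and the part of late spermatocytes in the Hist1h1t value was not tested. In spermatids the same sum was 5970 to 6307 FPKM in the wild type and 5589 to 6066 in Tex10-deficient libraries, with 2 of 8 markers above 0. These sums exceed those of MI spermatocytes, and the part of such cells in the spermatid value was not tested. In MII libraries the late spermatocyte sum was 303 and 867 against 128 and 237, with 8 of 8 markers below 0, while Hist1h1t lay above. The part of spermatocytes and of other cells in the MII value of Hist1h1t was not tested. Meiotic prophase markers summed to 307 to 369 FPKM against 203 to 402 in spermatogonia and to 225 to 277 against 219 to 229 in spermatids. In MI spermatocytes they summed to 724 to 951 FPKM against 501 to 710, with 2 of 8 above 0 and 6 below. In spermatogonia T cell markers (4 of 6 in the table, none at 0) also separated, at 16.7 and 54.4 FPKM against 62.1 and 69.7, with 4 of 4 above 0, and their part in the result was not tested.

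**Figure D3:**
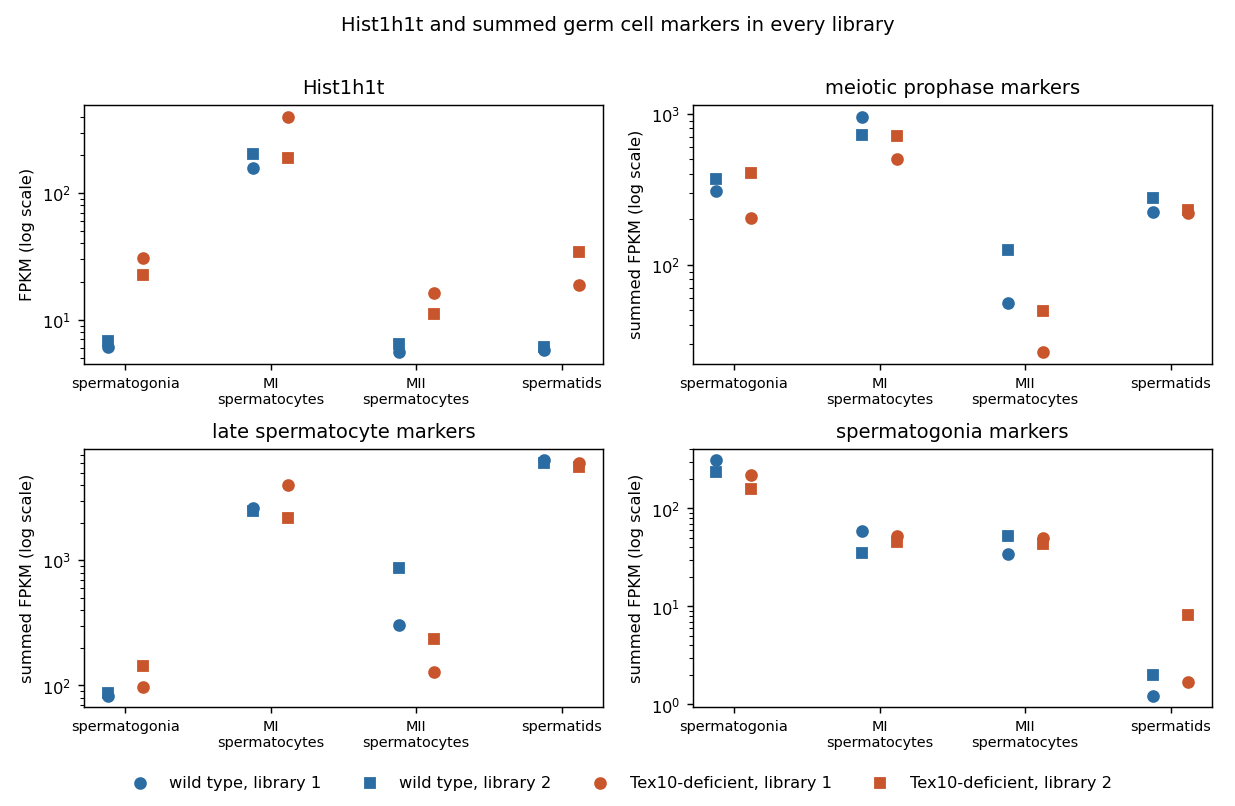
FPKM of Hist1h1t, and summed FPKM of 8 meiotic prophase markers, 8 late spermatocyte markers and 6 spermatogonial markers, in all 16 libraries on log scales, with wild type in blue, Tex10-deficient in orange, circles for library 1 and squares for library 2. In MII libraries Hist1h1t is higher and both spermatocyte marker sums are lower in Tex10-deficient cells. The part of cell types in these values was not tested.

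None of the 9 other linker histone genes was called, within a cell type or on average. Apart from H1fnt and Hils1, they were chosen after their values were seen. For the average over cell types the log2 difference was 0.59 for Hist1h1e, 0.57 for Hils1 (the spermatid linker histone), 0.41 for Hist1h1b, 0.16 for H1f0, 0.13 for Hist1h1a, 0.091 for H1fnt, -0.080 for Hist1h1d, -0.13 for Hist1h1c and -0.57 for H1fx. The smallest of their adjusted p in limma was 0.2421 for the average and 0.07829 within a cell type, both for H1fx, which held 1.48 and 2.65 FPKM in wild-type MII libraries and was listed at 0 in both Tex10-deficient ones. Hist1h1e, the nearest in size, stood at 166 and 242 FPKM in wild-type spermatogonia and at 280 and 270 in Tex10-deficient spermatogonia. Whether Hist1h1t differed more than these genes was not tested.

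Nor were the genes beside Hist1h1t called. Of 16 tested genes within 100 kb, 10 had an average log2 difference above 0 and 6 below, with a range of -0.43 to 0.72, a median of 0.17 and 0 adjusted calls. At an unadjusted p under 0.05 in limma there was 1, Hist1h2bb, with an adjusted p of 0.4007, named after its value was seen. Hist1h1t shared none of its 50-base windows with another annotated transcript.

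**Figure D4:**
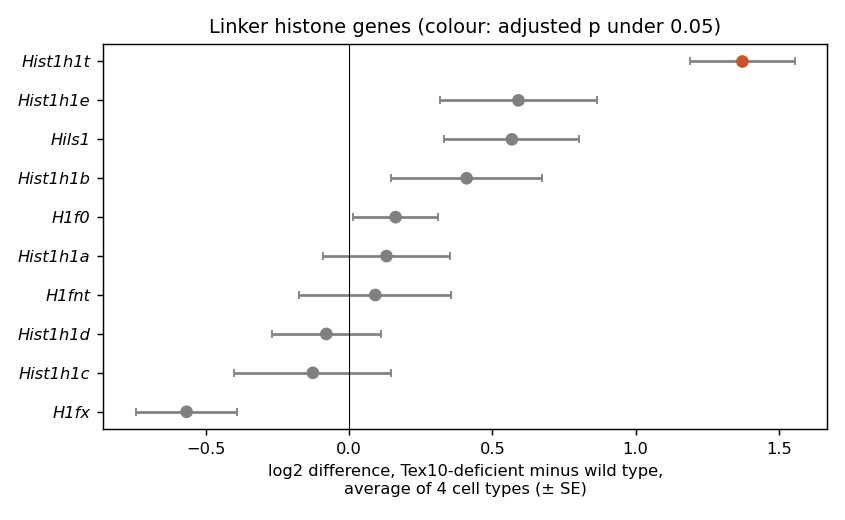
Average log2 difference over 4 cell types, Tex10-deficient minus wild type, with bars of ± 1 SE, for 10 linker histone genes, with the gene whose adjusted p was under 0.05 in orange. Hist1h1t lies at 1.37, and the other 9 lie between -0.57 and 0.59.

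Hist1h2aa and Hist1h2ba encode TH2A and TH2B, the testis forms of the core histones H2A and H2B, which pair with each other in nucleosomes. Hist1h2aa was among the most abundant transcripts of the table in spermatogonia, with 10547 and 11318 FPKM in the wild type and 4185 and 5098 in the Tex10-deficient libraries. It ranked 1st or 2nd in each of these 4 libraries and took 5.36% and 5.67% of the summed FPKM in the wild type against 2.23% and 2.54%. Both Tex10-deficient libraries lay below both wild-type ones, with means of 10932 ± 545 and 4641 ± 646 (SD, n = 2 each).

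From spermatogonia onward Hist1h2aa stepped down at each stage of the wild type. In MI spermatocytes it held 1394 and 683 FPKM in the wild type and 1178 and 1021 in Tex10-deficient libraries, which overlap. In MII libraries it held 162 and 338 FPKM against 153.8 and 77.4, so that both Tex10-deficient values were the lower ones. In spermatids it held 13.7 and 20.3 FPKM against 92.3 and 232, a ratio of 9.54. The wild type thus spanned 644 times between its highest and lowest mean and the Tex10-deficient libraries 40.2 times.

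The log2 differences of Hist1h2aa were -1.24 in spermatogonia, 0.17 in MI spermatocytes, -1.09 in MII libraries and 3.06 ± 0.51 (SE) in spermatids. None passed (limma, adjusted p = 0.676, 1, 0.375 and 0.145), nor did the average of 0.22 (adjusted p = 0.791). Limma's F test of a difference between cell types had an adjusted p of 0.165, and without wild-type MII library 1 its adjusted p was 0.0294. In spermatogonia the 6 spermatogonial markers summed to 309 and 233 FPKM in the wild type and to 218 and 158 in Tex10-deficient libraries, with 5 of 6 below 0, a median log2 difference of -0.28 and none at 0 FPKM. In spermatids they summed to 1.23 and 2.02 FPKM against 1.71 and 8.11, with Stra8 at 0 in all 4 libraries. Tex10-deficient spermatid library 2, which held 232 FPKM of Hist1h2aa, also held the highest Leydig marker sum of the spermatids, 199 FPKM against 13.9 to 65.9 in the other 3. Without that library the spermatid difference of Hist1h2aa was 2.4 on the log2 scale. The part of these markers in the result was not tested.

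Hist1h2ba ran at a far lower level than its neighbour. In spermatogonia it stood at 80.3 and 47.5 FPKM in the wild type and at 170 and 188 in Tex10-deficient libraries, a ratio of 2.8 with both Tex10-deficient libraries above. In MI spermatocytes the values were 59.4 and 29.2 against 164 and 36.5 FPKM, which overlap. In MII libraries they were 7.24 and 5.69 against 1.69 and 3.63 FPKM, with both Tex10-deficient libraries below. In spermatids Hist1h2ba was listed at 0 in both wild-type libraries and stood at 6.34 and 3.87 FPKM in the Tex10-deficient ones. A 0 in such a table can be a failed estimate, so no ratio is given.

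For Hist1h2ba the log2 differences were 1.52, 0.88, -1.07 and 2.58 from spermatogonia to spermatids, with limma adjusted p of 0.59, 1, 0.447 and 0.401. The average was 0.97 ± 0.28 (SE), with an adjusted p of 0.203. The spermatid value depends on the constant added before taking logs, since with 0.1 FPKM in place of 1 it was 5.66 and passed (adjusted p = 0.00767). The F test gave an adjusted p of 0.476.

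Set side by side, the divergent genes kept nearly the same order over cell types, while their ratio separated the genotypes in spermatogonia. Over the 16 libraries Pearson's r of their log2 levels was 0.907, a description over libraries that share cell type. In wild-type spermatogonia there was 131 and 238 times as much Hist1h2aa as Hist1h2ba by FPKM, and in Tex10-deficient spermatogonia 24.6 and 27.1 times. In MI spermatocytes the ratio was 23.5 and 23.4 in the wild type and 7.2 and 28 in Tex10-deficient libraries, which overlap. In MII libraries it was 22.4 and 59.4 against 91.2 and 21.3, which overlap as well, and in spermatids the wild-type ratio is not given because Hist1h2ba was listed at 0. In spermatogonia Hist1h2aa lay lower and Hist1h2ba higher in Tex10-deficient cells, while in spermatids both lay higher and in MII libraries both lower. No test was made of the ratio. Of the 50-base windows of the annotated transcripts, 23.8% for Hist1h2aa and 38.2% for Hist1h2ba also occur in other annotated genes. Reads could therefore be split between genes, and these shares do not bound the error of either value or of the ratio. For Hist1h2ba the genes that share windows include other H2B genes. Hist1h2aa overlaps Gm44344, a miRNA gene on the other strand that is not among the genes of the table, and at 100 bases this was the only gene with which it shared windows (30 windows). Whether counting used strand is not given.

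**Figure D5:**
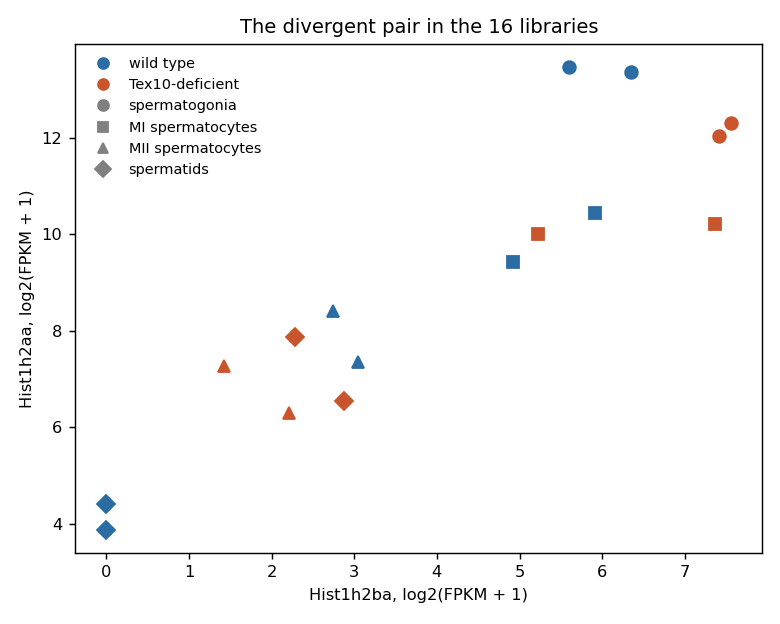
Level of Hist1h2aa against Hist1h2ba, both as log2(FPKM + 1), in the 16 libraries, with wild type in blue, Tex10-deficient in orange, and circles, squares, triangles and diamonds for spermatogonia, MI spermatocytes, MII spermatocytes and spermatids. The points rise together from wild-type spermatids at the lower left, and the Tex10-deficient spermatogonia lie below and to the right of the wild-type ones.

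H1fnt, a linker histone that spermatids need for normal elongation and condensation of the nucleus, lies on chromosome 15 (XLOC_007665, chr15:98255986-98257293, minus strand, a single exon of 1308 bases). Its level climbed at each stage. Spermatogonia held 1.99 and 1.95 FPKM in the wild type and 3.01 and 4.57 in Tex10-deficient libraries. MI spermatocytes held 3.30 and 6.63 against 4.05 and 10.5 FPKM, and MII libraries 34.5 and 48.0 against 15.4 and 34.1. Spermatids held 423 and 248 FPKM in the wild type and 205 and 565 in Tex10-deficient libraries, so the 2 Tex10-deficient values enclosed the wild-type ones.

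The genotypes separated for H1fnt in spermatogonia (log2 difference 0.67, higher) and in MII libraries (-0.79, lower), and overlapped in the others. In MII libraries round spermatid markers (8 genes) summed to 51.2 to 196 FPKM in the wild type and 27.1 to 42.2 in Tex10-deficient libraries, with 8 of 8 below 0 and a median log2 difference of -1.26. Elongating spermatid markers there summed to 790 to 826 against 338 to 678 FPKM, with 8 of 8 below 0 and a median of -0.86, and the part of spermatids in the H1fnt value was not tested. Limma's adjusted p were 0.9595 and 0.5896, and the average of 0.091 had an adjusted p of 0.9348. The spermatid difference was 0.074 ± 0.53 (SE), and it ran from -0.66 to 0.80 when each library was left out in turn, so its direction was set by single libraries. In spermatids elongating spermatid markers summed to 6485 FPKM in Tex10-deficient library 1 and 9111 in library 2, against 11696 to 13304 in the wild type. Of these 8 markers 4 lay above 0 and 4 below in log2 difference. The part of elongating spermatids in the spermatid values of H1fnt and H2afb1 was not tested. H1fnt shared no 50-base window with another annotated transcript.

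H2afb1 was detected in 9 of 16 libraries at 1 FPKM or more and was highest in spermatids. It was listed at 0 in all 4 spermatogonia libraries, in 1 of the 2 wild-type MI libraries (the other held 1.25 FPKM) and in both Tex10-deficient MI libraries. MII libraries held 2.14 and 3.83 FPKM in the wild type and 1.55 and 3.97 in Tex10-deficient ones. Spermatids held 74.6 and 36.9 FPKM against 22.6 and 140.5 FPKM, and again the Tex10-deficient libraries enclosed the wild-type ones. No log2 difference exceeded its SE (spermatids 0.11 ± 0.66, MII libraries -0.13 ± 0.66, MI spermatocytes -0.59 ± 0.66), and the average of -0.15 had a limma adjusted p of 0.9068.

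Which gene the symbol H2afb1 stands for in the table is uncertain. GENCODE M21 places H2afb1 on the X chromosome (chrX:117014757-117015104), where it encodes a short H2A variant. RefSeq gives the name as a synonym of that gene and also of H2al2a on chromosome 2 (chr2:17996417-17996958). The locus number of the table (XLOC_012114) lies between those of Nsun6 and Dnajc1, genes of chromosome 2, and 59 of 59 loci with a known chromosome within 50 numbers are on chromosome 2. Its values are therefore given under the symbol of the table alone. The GENCODE transcript of that name on X shares 43.8% of its 50-base windows with H2afb2 or H2afb3, so if the values are of that gene, reads could be split.

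H1fnt and H2afb1 tracked each other over the 16 libraries (Pearson's r = 0.97, a description). In each, Tex10-deficient spermatid library 2 was the highest and library 1 the lowest of the 4 spermatid libraries. The 5 genes most like each member were chosen by r of log2 levels over the same 16 libraries. A like pattern over stages therefore follows from the choice. For H1fnt they were Sppl2c (0.989), Cabs1, Txndc2, Trim80 and Smim23, and for H2afb1 they were Kctd16 (0.989), Spata32, Clmn, Smim23 and Prss52, so that Smim23 stands in both. Sppl2c had a wild-type mean of 104 FPKM in spermatids and 8.93 in MII libraries.

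The genes most like the other members were chosen in the same way, so their stages are again no separate result. For Hist1h2aa they were Nln (r = 0.962 over 16 libraries), Dmrt1, Dgke, Taf4b and Tktl1, of which Dmrt1 and Taf4b encode transcription regulators of spermatogonia and Dmrt1 was among the marker genes. For Hist1h2ba they were Supt16 (0.948), a histone chaperone subunit, with Hmgb2, Orc2, Fkbp6 and Zdhhc13. Supt16 spanned a smaller range, from 58.3 FPKM in wild-type spermatogonia to 13.8 in spermatids. For Hist1h1t they were Hepacam2 (0.982), Kcnk10, B3galnt1, Mcmdc2 and Tmem38b, and each had its highest wild-type mean in MI spermatocytes. Hepacam2 stood at 4.4 FPKM there and below 0.5 in the other 3. For H2afy3 they included Kif4-ps (0.981), Mapk15, Spdye4b and Cfap46.

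H2afy3 is annotated as a processed pseudogene related to macroH2A, a large H2A variant (XLOC_007401, chr15:62218221-62219332, minus strand, a single exon inside the long noncoding gene Pvt1 of the plus strand). Wild-type MI spermatocytes held 12.2 and 18.3 FPKM and Tex10-deficient ones 12.6 and 9.53, which overlap. Spermatids held 4.26 and 6.39 FPKM against 4.11 and 2.67, with both Tex10-deficient libraries below. MII libraries held 0.571 and 2.39 FPKM against 0.336 and 0.769, and spermatogonia were listed at 0 and at 0.179 against 0.612 and 0.357.

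The log2 differences of H2afy3 were 0.45, -0.42, -0.59 and -0.53 from spermatogonia to spermatids, and none passed (limma, adjusted p from 0.582 to 1). The average was -0.27 ± 0.19 (SE), with an adjusted p of 0.642. Pvt1, which could share reads with it, reached at most 5.79 FPKM, in a wild-type MII library, and held 0.797 and 0.794 FPKM in wild-type MI spermatocytes where H2afy3 was highest. H2afy and H2afy2, the genes of macroH2A, were chosen after their values were seen, and their averages were 0.19 and -0.084 with adjusted p of 0.6712 and 0.9431. In MI spermatocytes of the wild type H2afy held 22.4 and 30.0 FPKM and H2afy2 held 1.81 and 0.228. Of the 50-base windows of H2afy3, 14.9% also occur in H2afy2 or Pvt1.

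The rest of the histone programme was described by lists written from textbook knowledge. No gene of any list was called in any comparison of genotypes. The transition proteins and protamines, which replace histones in elongating spermatids, numbered 5, and all 5 had their highest wild-type mean in spermatids. There their median log2 difference was -1.29 with 5 of 5 below 0, against a median of -0.018 for all genes, and 3 of 5 had an unadjusted p under 0.05, as did 2.17% of all genes. Tnp1, a transition protein, stood at 2946 ± 501 FPKM (SD, n = 2) in wild-type spermatids and 1199 ± 15 in Tex10-deficient spermatids, with a limma adjusted p of 0.7063. Prm1, a protamine, stood at 1655 ± 88 and 716 ± 254 FPKM, with an adjusted p of 1. H1fnt and H2afb1 in the same spermatid libraries had differences of 0.074 and 0.11.

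Replication-dependent histone genes, the 46 cluster genes of the table other than the members, were highest in wild-type spermatogonia for 40 of 46, as were Hist1h2aa and Hist1h2ba. Their average genotype difference was above 0 for 31 and below for 15, with a median of 0.21 against -0.019 for all genes. Hist1h2ai, the most abundant of them on average, held 960 ± 79 FPKM (SD, n = 2) in wild-type spermatogonia and 1272 ± 379 in Tex10-deficient ones. Hist1h2bm held 796 ± 24 and 566 ± 149 FPKM. By FPKM both lay far below Hist1h2aa in the wild type, in libraries that select polyA tails.

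Of 16 other germ line variants 3 were in the table: Hils1, H2bfm and 1700024P04Rik. Hils1 held 466 ± 120 FPKM (SD, n = 2) in wild-type spermatids, in the range of H1fnt, and 624 ± 335 in Tex10-deficient spermatids. Genes of histone acetylation, eviction and chaperoning (30 of 31 in the table) had an average median of -0.12, with 9 above 0 and 21 below. Brdt, the bromodomain protein that reads acetylated histones before their removal, held 499 ± 49 FPKM in wild-type spermatids and 423 ± 38 in Tex10-deficient ones. Factors known to act at histone or spermatocyte promoters (17) had an average median of -0.095, with 4 above 0 and 13 below. Rfx2, a spermatocyte transcription factor, held 5.04 ± 1.33 FPKM in wild-type spermatogonia and 9.76 ± 0.92 in Tex10-deficient ones, with an adjusted p of 0.8064. Mybl1, another, held 6.69 ± 2.04 and 7.42 ± 3.48 FPKM there.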

How the data were processed

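Bulk RNA-seq libraries were polyA-enriched, per the labels. Tools named in the submitters' processing notes are STAR 2.7.6a, Cufflinks 2.2.1, FastQC 0.10.1, cutadapt and Trim Galore 0.6.3, and the build is mm10. No source used here gives the annotation, gene filter or scaling. Deposited values are FPKM to which the authors had added 1, as read from the values, whose minimum is 1, and the 1 was subtracted. Of the values, 3.33% were then 0. Read depth is unknown, so no counting intervals are given. The gene 1110002L01Rik held a letter in 1 library and was left out.

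In R 4.3.3, limma 3.58.1 (lmFit, then eBayes with trend) was run on log2(FPKM + 1) for all 8 groups together, leaving 8 residual degrees of freedom, and p-values were adjusted by Benjamini-Hochberg over 13099 genes. Differences on this scale understate the change of low genes. Within each cell type wild type was subtracted from Tex10-deficient, and the fit also gave their average and an F test between cell types. The fit was tested on simulated data. Alternatives were other pseudocounts, filters and scalings, eBayes without a trend, array weights, a replicate block, fits of 4 libraries or without MII libraries, grouping by the cell type field, and each library left out. Members and lists were chosen with earlier results of these data known. Genes named were the 6 members, the 5 genes most like each, and called or most abundant genes of the lists, and the text says where a gene was chosen otherwise. Of the genes this rule gives, 1 is not reported here. Promoter sequences are from RefSeq and positions from GENCODE M21. Shared windows are the 50-base windows of a gene's transcripts found in the transcripts of other genes. Python 3.11.15, pandas 2.3.3 and matplotlib 3.10.9 were used.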

Additional observations from a re-analysis of the deposited data

Results flagged for a closer look

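For 4 genes the genotypes separated in opposite directions in different cell types, as they did for 18.1% of all genes tested. Hist1h2aa was lower in Tex10-deficient spermatogonia (log2 difference -1.24) and MII spermatocytes (-1.09) and higher in spermatids (3.06). Hist1h2ba was higher in spermatogonia (1.52) and spermatids (2.58) and lower in MII spermatocytes (-1.07). H1fnt was higher in spermatogonia (0.67) and lower in MII spermatocytes (-0.79). H2afy3 was higher in spermatogonia (0.45), where every library lay below 1 FPKM, and lower in spermatids (-0.53). In spermatids its lower wild-type library held 4.26 FPKM and its higher Tex10-deficient library 4.11. The difference between cell types was tested by limma's F test and passed for none of the 4, with adjusted p of 0.1646 for Hist1h2aa, 0.4758 for Hist1h2ba, 0.9937 for H1fnt and 0.9819 for H2afy3.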

How the results depend on the processing

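The average difference of Hist1h1t kept its direction in 27 of 27 alternatives and its call in 26, with values from 1.08 to 1.53 and limma adjusted p from 0.00298 to 0.0393 where titles gave the groups. Leaving out each library gave 1.24 to 1.505. Grouping by the cell type field gave 1.37 with an adjusted p of 1, and the number of the 6 genes called was then 2 in MI spermatocytes, 2 in MII spermatocytes, 0 for the average and 2 for the F test. It also reversed Hist1h2ba in spermatogonia (-1.55), Hist1h1t (-3.41), Hist1h2aa (-0.63), Hist1h2ba (-0.53) and H2afb1 (0.57) in MI spermatocytes, Hist1h2aa (0.50), Hist1h2ba (2.23), H2afb1 (0.32) and H2afy3 (1.85) in MII spermatocytes, and H1fnt (-2.01) and H2afb1 (-2.17) in spermatids. Over all genes, grouping by the field gave 3241 calls in MI spermatocytes and 4899 in MII spermatocytes, against 22 and 1 by title. By title, spermatogonial markers summed to 218 and 158 FPKM in Tex10-deficient spermatogonia and to 1.71 and 8.11 in Tex10-deficient spermatids. The cause of the changes under the field was not tested. In spermatogonia 1 of the 6 was called with quantile normalization (Hist1h1t, 2.38, adjusted p = 0.0271) and with array weights (adjusted p = 0.0306), and in spermatids 1 with a pseudocount of 0.1 (Hist1h2ba, 5.66). The uncalled spermatogonia difference of Hist1h2aa shrank from -1.24 to -0.23 with quantile normalization. Leaving out libraries gave 0 to 1 calls by the F test, the 1 being Hist1h2aa without wild-type MII library 1. It also changed the sign of uncalled differences, with ranges of -0.35 to 0.68 for Hist1h2aa, -0.19 to 1.945 for Hist1h2ba and -0.18 to 1.01 for H1fnt in MI spermatocytes, -0.61 to 0.35 for H2afb1 in MII spermatocytes, -0.66 to 0.80 for H1fnt and -1.18 to 1.40 for H2afb1 in spermatids, and -0.092 to 0.27 for H1fnt and -0.47 to 0.17 for H2afb1 on average. A pseudocount of 5 gave -0.00496 for H1fnt on average, and quantile normalization 0.075 for H2afb1 in MII spermatocytes. Over all genes, 13 passed for the average, and 5 with a pseudocount of 0.1, 8 with quantile normalization and 5 to 512 with a library left out, the 512 without wild-type MII library 1. Deviations of same-numbered libraries of both genotypes correlated at 0.203, 0.00383, 0.308 and -0.127 over genes from spermatogonia to spermatids. These values do not settle whether the numbers pair the samples. Whether same-numbered libraries of the same genotype go together over cell types was not tested. With the replicate number as a block the average of Hist1h1t was 1.37 (adjusted p = 0.0108), 0 of 6 were called within cell types and 20 of all genes passed for the average. Over all genes, the block took the number passing from 1 to 268 in MII spermatocytes and from 22 to 32 in MI spermatocytes. In spermatogonia the number stayed at 2, and in spermatids it went from 0 to 1. Depth is unknown, so its effect on these values could not be measured.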

Other observations

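Among replacement histone variants, which are made outside S phase, H2afz stood high in MI spermatocytes, with 893 ± 73 FPKM (SD, n = 2) in wild-type libraries and 581 ± 139 in Tex10-deficient libraries. H2afx, whose product marks DNA breaks and the sex body, stood at 114 ± 16 FPKM in wild-type spermatogonia and 205 ± 1 in Tex10-deficient ones, a log2 difference of 0.85 with a limma adjusted p of 0.9388. Of the 11 variants of that list, 5 had an average difference above 0 and 6 below, with a median of -0.071 and 0 called. The processing genes of histone messages (16 of 17 in the table) had 6 above 0 and 10 below, with a median of -0.065 and 0 called. Slbp, which binds the stem-loop, stood at 104 ± 4 FPKM in wild-type spermatogonia and 84.5 ± 0.9 in Tex10-deficient ones, with an adjusted p of 1. Papolb, the testis polyA polymerase, stood at 1070 ± 147 and 999 ± 57 FPKM in spermatids.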
